A study of Mus musculus with 2 samples.

Results

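The genes described here mark macrophages and other myeloid cells, or blood cells in general, in mouse fetal thymic stromal cells that were grown either as reaggregation thymus organ culture (RTOC) or as 2D culture. The list holds 48 genes chosen by name, with older names such as Emr1 (Adgre1) and Sfpi1 (Spi1, which encodes PU.1) allowed, and 74 probes matched them. All 48 genes were present among the 19505 named genes of the array. By role they fell into 2 myeloid transcription factors, 7 genes of tissue macrophage identity, 3 chains of complement C1q, 6 Fc receptors and ITAM-type adaptors or receptors, 6 genes of monocytes and microbial defence, 8 scavenger receptors and lectins of macrophages, 2 lectins linked to dendritic cells, 4 genes of apoptotic cell uptake, 2 genes of lysosome and lipid handling and 8 genes of blood cells in general.

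Both cultures started from C57BL/6 lobes (the strain is labelled on the 2D channel) that had been kept in organ culture with 1.35 mM deoxyguanosine, an agent given to remove blood cells, before the stroma was dispersed. By the labels this organ culture lasted 8 days for the E14.5 embryos and 9 days for the E15.5 embryos. RNA was collected after 72 h in RTOC, in which the cells lie packed on a membrane, or in 2D culture, in which they lie flat in a dish. Each stage gave 1 array with RTOC in the Cy5 channel and 2D culture in the Cy3 channel. The dyes were never exchanged, so that a dye effect of a probe and its culture effect cannot be told apart. Nor can embryonic stage, days of organ culture and array, and whether lobes were pooled was not given in the sources used here.

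Macrophages of fetal organs descend from progenitors of the yolk sac and fetal liver, and in the thymus they engulf dying thymocytes. Their survival depends on the receptor Csf1r, which binds the growth factors Csf1 and Il34, and their identity depends on the transcription factor PU.1. Monocytes and dendritic cells share much of this gene programme, which is why few of the genes belong to 1 cell type alone.

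The labelled content was checked against the defining markers first. Csf1r, Emr1, C1qa and the pan-haematopoietic gene Ptprc were all well above background in each of the 4 channels, and RNA of blood cells was thus measured in RTOC and in 2D culture at either stage after deoxyguanosine. The members well above background numbered 41 and 43 of 48 at E14.5 (2D culture and RTOC) and 42 and 44 at E15.5. Members were counted by their brightest probe, whereas the shares over all 41174 probes, dimmer ones included, were 53.1%, 56.3%, 53.5% and 60.9%. By the brightest probe, 43 of 48 members and 13497 of 19505 named genes had at least 1 channel of each array well above background. No member probe was saturated.

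Most of the myeloid genes gave more signal in RTOC. A gene was tested through its brightest probe where at least 1 channel of each array was well above background, and it was called at a limma adjusted p under 0.05. Of the 43 members tested, 27 were higher in RTOC (15.4% of all 13497 genes tested were called higher) and 2 were lower, namely Axl and Msr1 (12.7% of all genes were called lower). Of all called probes 52.9% were higher in RTOC, a share that became 65.1% when each array was instead centred on its median, with 30 members then higher and 2 lower. The other 14 tested members were not called and 5 members could not be tested. Over the 43 tested members the median log2 ratio of RTOC over 2D culture was 1.20, with a range from -2.55 to 4.28, against a median of 0.00 over all genes tested. On both arrays 36 members were higher and 4 lower in RTOC, and 3 had opposite signs. Across all genes 40.1% were higher on both arrays and 20.4% had opposite signs. A rise of at least 2-fold on both arrays was seen in 21 members and in 11.4% of all genes tested. When the signals were instead background-corrected by normexp and normalised by loess, which draws the ratios of dim probes towards 0 through an offset of 50, 26 members were higher and 2 lower (10.5% and 8.38% of all genes), and the members' median was 0.94. In all 4 channels 40 of the members were well above background. Spic, Clec10a and Timd4 were the tested members without it, and they entered the test of at least 1 array only through their RTOC signal. In RNA from a mixed culture, fewer cells of a type and less RNA per cell cannot be told apart.

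**Figure D1:**
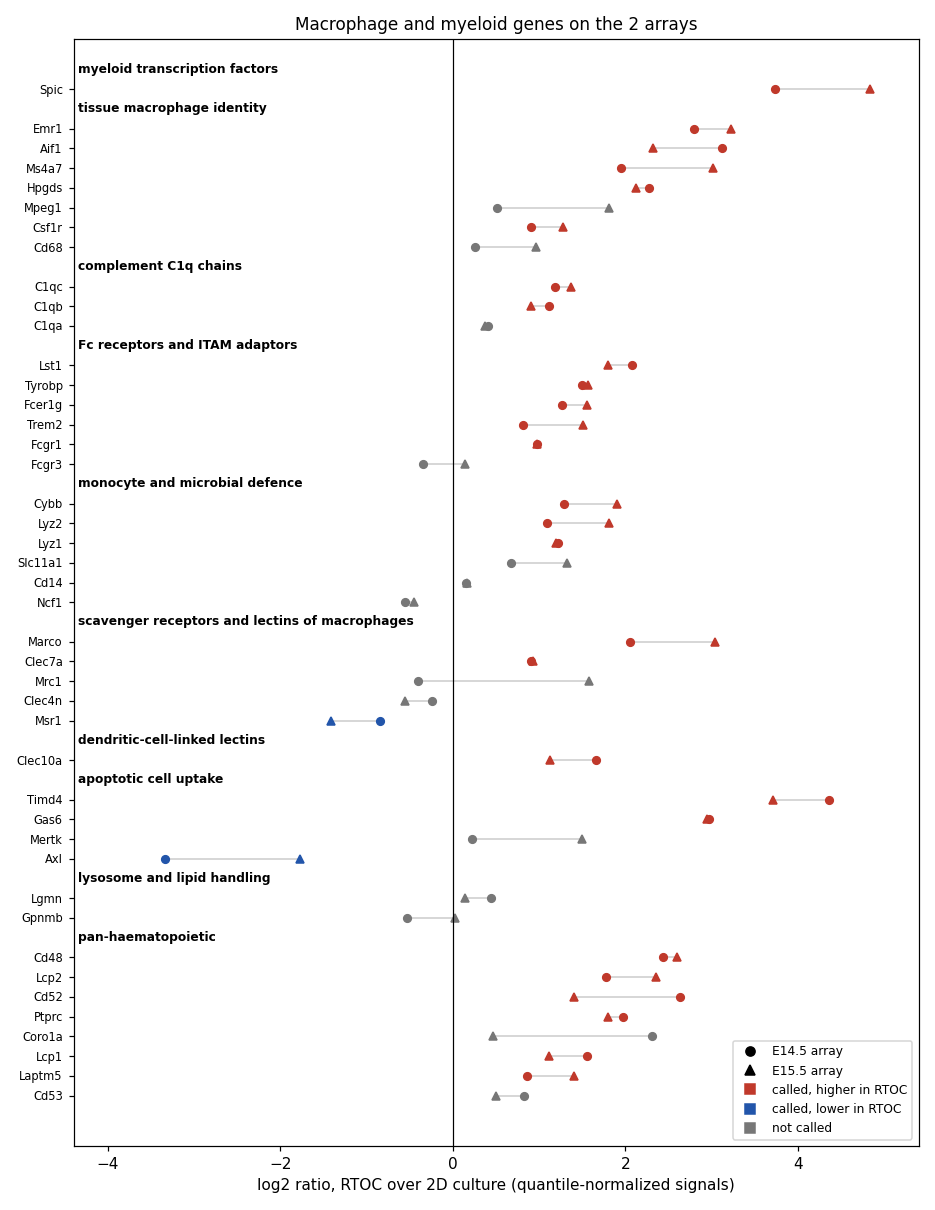
Log2 ratio of RTOC over 2D culture (horizontal axis) on the E14.5 array (circles) and the E15.5 array (triangles) for the 43 tested members, grouped by role. Red marks the 27 genes called higher in RTOC, blue the 2 called lower (Axl and Msr1) and grey the 14 not called, and the line joins the 2 arrays of a gene.

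Among the tissue macrophage genes, 5 of 7 rose, with a median log2 ratio of 2.19 that became 1.18 after normexp and loess, with 5 again called. Emr1 encodes F4/80, the adhesion receptor most used to recognise mouse macrophages. Its normalised signal at E14.5 was 5006 in 2D culture and 34872 in RTOC, and at E15.5 it was 4234 and 39430. Both RTOC signals thus lay far above both 2D signals, and the mean log2 ratio was 3.01 ± 0.27 (SE, n = 2 arrays, limma adjusted p = 0.00233), 8.05-fold. Its dimmer probe had a log2 ratio of 1.71 and was called, but not after normexp and loess (0.49, limma adjusted p = 0.0722).

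Csf1r, the receptor on which macrophages depend, moved less. It gave 1251 and 2345 at E14.5 and 1348 and 3284 at E15.5 (2D culture and RTOC). The RTOC signals did not overlap those of 2D culture, and the log2 ratio was 1.10 ± 0.26 (SE, n = 2 arrays, limma adjusted p = 0.0319). Lack of overlap, for this and other genes, only describes the 2 signals of each culture. Its share over all genes was not determined. The call rested on the brightest probe, since the next probe had a log2 ratio of 0.21 (limma adjusted p = 0.591) and the median over the tested probes was 0.65.

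Aif1, a calcium-binding protein of activated macrophages and microglia, gave 1749 and 15258 at E14.5 and 1540 and 7704 at E15.5 (2D culture and RTOC), a log2 ratio of 2.72 ± 0.30 (SE, n = 2 arrays, limma adjusted p = 0.00376). It rose at each stage with no overlap of the cultures. Ms4a7, a membrane protein of tissue macrophages, rose by 2.49 ± 0.34, and Hpgds, the haematopoietic prostaglandin D synthase that mast cells also make, by 2.19 ± 0.25 (1.18 after normexp and loess). All probes of Aif1 and Ms4a7 were called in the same direction, although the pair for Ms4a7 overlaps by 35 bases. The remaining pair did not pass the test. Mpeg1, a pore-forming protein of macrophages, had log2 ratios of 0.51 at E14.5 and 1.81 at E15.5 (limma adjusted p = 0.0685 for the mean), and the lysosomal glycoprotein Cd68 had 0.26 and 0.96 (limma adjusted p = 0.166).

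The transcription factors could be judged only in part. Spic is a relative of PU.1 that is required for iron-recycling macrophages of the spleen. Its brightest probe gave 154.8 in 2D culture and 2055 in RTOC at E14.5, and 55.3, which was not well above background, and 1578 at E15.5 (log2 ratio 4.28 ± 0.34 SE, n = 2 arrays, limma adjusted p = 0.00205). After normexp and loess the ratio was 2.09, below those of Gas6, Emr1, Aif1 and Ms4a7. The second probe gave 2.83 (limma adjusted p = 0.00786), and 1.19 after normexp and loess. The only probe of Sfpi1 was not well above background in any channel, with signals of 13.8 and 38.3 at E14.5 and 14.1 and 27.7 at E15.5, so PU.1 mRNA expression was not measured here.

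The chains of C1q, the recognition molecule of the classical complement pathway, which macrophages are a main source of, were all higher in RTOC on both arrays, and 2 of 3 were called. The genes C1qb, C1qc and C1qa lie next to each other on chromosome 4 in that order, with no other protein-coding gene of the RefSeq annotation between them. C1qc gave 8732 and 19801 at E14.5 and 10170 and 26361 at E15.5 (2D culture and RTOC). C1qb gave 1416 and 3047, then 1907 and 3553. C1qa gave 4108 and 5446, then 5135 and 6652. Each chain was higher in RTOC than in 2D culture in both stages without overlap between the cultures, which is a description and not a test. The log2 ratios were 1.28 ± 0.25 for C1qc (SE, n = 2 arrays, limma adjusted p = 0.0189) and 1.0 ± 0.25 for C1qb (limma adjusted p = 0.037), whereas C1qa had 0.39 ± 0.25 and was not called (limma adjusted p = 0.283). Whether the chains differed from each other was not tested.

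Since PU.1 acts on many of these genes through a purine-rich core, the letters GAGGAA, and GAGGAAGT as a longer form that contains it, were searched on both strands of the RefSeq promoter windows (GRCm38.p6). Each window runs from 250 bases before to 50 after a start site, and 36 members had one. GAGGAA occurred in 20 of the 36 (55.6%) against 31.3% of 27025 genes with a window, and in 13 of the 21 members with a window that were called higher. GAGGAAGT occurred in 3 members (8.33%, C1qc, Hpgds and Cd53) against 3.69% of all genes. A match describes letters only and no binding was measured. The 250 bases before the start site follow for the adjacent C1qb and C1qc, for Hpgds, and for Aif1 and Axl, which were added once their values were known because Aif1 rose and Axl fell. All 5 genes lie on the minus strand, each is written 5′ to 3′ towards its start site, and capitals mark the match. By the gene annotation the Hpgds stretch lies wholly inside the gene. Those of Axl, Aif1 and C1qc overlap their genes in part. The start sites of these windows are thus not the outermost annotated ends of those genes.
C1qb (chr4:136886201-136886450, match from 30 bases before the start): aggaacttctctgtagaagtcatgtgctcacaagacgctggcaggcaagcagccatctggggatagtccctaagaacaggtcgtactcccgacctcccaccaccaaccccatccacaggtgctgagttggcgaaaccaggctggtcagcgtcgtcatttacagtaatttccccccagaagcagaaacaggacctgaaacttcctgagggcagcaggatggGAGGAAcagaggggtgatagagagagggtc
C1qc (chr4:136892915-136893164, reverse match of the longer form from 195 bases before the start): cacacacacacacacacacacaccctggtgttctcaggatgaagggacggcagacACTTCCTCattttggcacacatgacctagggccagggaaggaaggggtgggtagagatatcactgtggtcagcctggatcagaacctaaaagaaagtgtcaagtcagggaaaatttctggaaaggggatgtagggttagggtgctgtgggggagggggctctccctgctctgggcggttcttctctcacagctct
Hpgds (chr6:65144731-65144980, longer form from 49 bases before the start): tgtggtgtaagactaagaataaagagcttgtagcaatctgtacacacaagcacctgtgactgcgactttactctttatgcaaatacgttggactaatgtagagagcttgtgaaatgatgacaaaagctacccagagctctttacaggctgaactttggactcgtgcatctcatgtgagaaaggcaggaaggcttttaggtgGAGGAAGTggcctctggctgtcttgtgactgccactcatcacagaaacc
Aif1 (chr17:35176053-35176302, reverse match from 7 bases before the start): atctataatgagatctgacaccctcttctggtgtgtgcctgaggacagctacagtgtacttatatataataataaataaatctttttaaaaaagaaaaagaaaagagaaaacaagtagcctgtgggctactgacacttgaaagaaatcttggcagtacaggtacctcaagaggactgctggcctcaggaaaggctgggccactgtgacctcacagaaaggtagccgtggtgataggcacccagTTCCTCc
Axl (chr7:25788734-25788983, reverse match from 130 bases before the start): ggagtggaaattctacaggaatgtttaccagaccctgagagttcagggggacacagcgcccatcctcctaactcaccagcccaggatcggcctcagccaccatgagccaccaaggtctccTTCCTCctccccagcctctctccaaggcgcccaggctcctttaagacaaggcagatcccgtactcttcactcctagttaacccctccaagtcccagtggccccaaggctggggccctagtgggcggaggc
Each of the genes printed above holds a match, so this set cannot show whether the letters go with a rise or a fall.

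**Figure D2:**
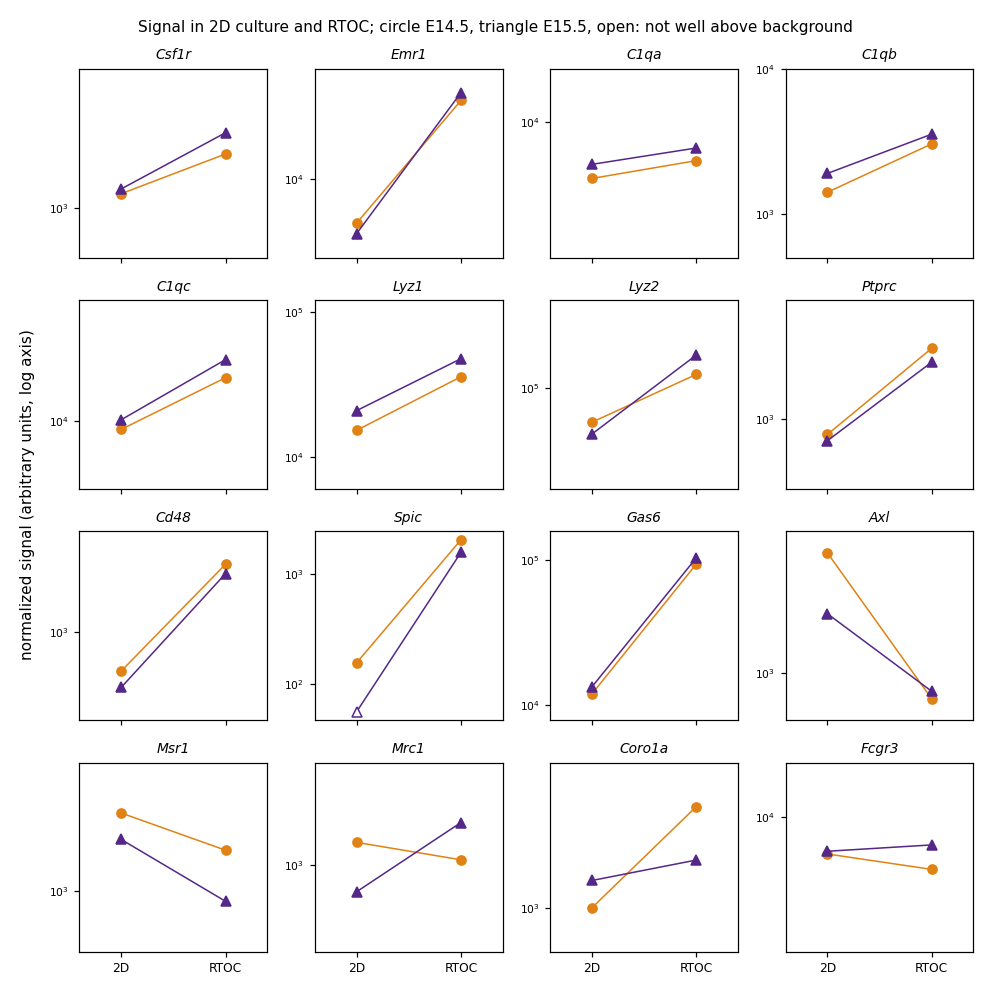
Normalised signal (vertical axis, arbitrary units, log scale, own range in each panel) of 16 members in 2D culture and RTOC, with circles for the E14.5 array, triangles for the E15.5 array and an open symbol where the signal was not well above background. Emr1, Cd48, Spic and Gas6 rise steeply on both arrays, Axl and Msr1 fall on both, and the lines of Mrc1 and Fcgr3 go opposite ways at the 2 stages.

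In the group of Fc receptors and of ITAM-type adaptors and receptors, 5 of 6 genes rose, with a median log2 ratio of 1.29. Of the 2 IgG receptors only Fcgr1 was called. Tyrobp, the adaptor DAP12, rose by a log2 ratio of 1.53 ± 0.25, and Fcer1g, the common gamma chain, by 1.41 ± 0.26. Lst1, a small membrane protein of leukocytes, rose by 1.94 ± 0.26 and lies beside Aif1 on chromosome 17. The high-affinity IgG receptor Fcgr1 had nearly the same ratio on both arrays, 0.97 and 0.98 (limma adjusted p = 0.0379). Trem2, a lipid-sensing receptor that signals through Tyrobp, rose by 1.16 ± 0.29 (limma adjusted p = 0.0361) on its brightest probe, but not on the other (0.83, limma adjusted p = 0.0734). Fcgr3, a low-affinity IgG receptor, had log2 ratios of -0.35 at E14.5 and 0.14 at E15.5 and was not called.

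The group of monocytes and microbial defence was divided, with 3 of 6 members higher and a median of 1.10. Lyz1 and Lyz2 are neighbouring lysozyme genes with closely related mRNAs, and Lyz2 is the copy that macrophages and neutrophils use most. Lyz2 gave 58014 and 123710 at E14.5 and 48102 and 168093 at E15.5 (2D culture and RTOC), and Lyz1 gave 15278 and 35674, then 20859 and 47469. Both genes were higher in RTOC without overlap, by a log2 ratio of 1.45 ± 0.29 for Lyz2 (SE, n = 2 arrays, limma adjusted p = 0.0199) and 1.20 ± 0.25 for Lyz1 (limma adjusted p = 0.0213). The 60-base probes of the pair shared no run of more than 6 bases, but no probe was compared with the other gene's mRNA. Whether a lysozyme probe also read the other mRNA was therefore not tested. The dimmer Lyz2 probe had 0.87 (limma adjusted p = 0.055). Cybb, the catalytic subunit of the phagocyte oxidase, rose by 1.59 ± 0.28 (0.78 after normexp and loess). Ncf1, its cytosolic partner, had -0.50 and the other Ncf1 probe 0.20, neither called. Cd14, a lipopolysaccharide co-receptor that is prominent on monocytes, had 0.16 on average with ratios of 0.15 and 0.16 on the 2 arrays, and the metal transporter Slc11a1 had 1.0 (limma adjusted p = 0.051).

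Scavenger receptors and lectins went in both directions. Marco, a collagen-like scavenger receptor, gave 674 and 2801 at E14.5 and 601 and 4936 at E15.5 in 2D culture and RTOC, a rise by a log2 ratio of 2.55 ± 0.33 (SE, n = 2 arrays, limma adjusted p = 0.00534). Its RTOC signals stood well apart from those of 2D culture. Msr1, the class A scavenger receptor, gave 3441 and 1910 at E14.5 and 2265 and 851 at E15.5. Msr1 was therefore lower in RTOC at each stage, and here too the cultures did not overlap. The mean log2 ratio was -1.13 ± 0.28 (SE, n = 2 arrays, limma adjusted p = 0.034), with a second probe called lower (-1.31) and another not called (-0.61).

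The mannose receptor Mrc1 showed no common direction. It gave 1426 in 2D culture and 1082 in RTOC at E14.5, but 652 and 1953 at E15.5, and the cultures overlapped (log2 ratios -0.40 and 1.58, limma adjusted p = 0.400). Clec7a, the beta-glucan receptor dectin-1, gave 15337 and 28884 at E14.5 and 13158 and 25074 at E15.5 (2D culture and RTOC), a rise by 0.92 ± 0.25 (SE, n = 2 arrays, limma adjusted p = 0.0442). Its cultures did not overlap, unlike those of Mrc1, and Clec4n, dectin-2, had -0.39 and was not called. Of the markers of resident macrophages in other organs, Cd163 and Vsig4 were not well above background in any channel. Siglec1 (CD169) was well above background only at E15.5, with 94.5 in 2D culture and 118 in RTOC, and was not tested. The 5 tested members of this group had a median of 0.59, which was -0.24 at E14.5 and 0.93 at E15.5.

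Of the 2 lectins linked to dendritic cells, 1 could be tested. Cd209a, a DC-SIGN relative of monocyte-derived dendritic cells, was not well above background in any channel. Clec10a, found on both macrophages and dendritic cells, gave 73.7 (not well above background) and 232 at E14.5 and 142 and 312 at E15.5. It was called higher with a log2 ratio of 1.39 ± 0.27 (SE, n = 2 arrays, limma adjusted p = 0.0185), but after the other background correction the ratio was 0.45 and no longer called (limma adjusted p = 0.0844).

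The genes of apoptotic cell uptake ranged from some of the steepest rises of the list to its steepest fall. Gas6 is a secreted ligand that links phosphatidylserine on dying cells to the receptors Axl and Mertk, and stromal cells make it as well as macrophages. Its signal rose from 11954 in 2D culture to 93430 in RTOC at E14.5 and from 13359 to 103015 at E15.5. These ratios were almost equal on the 2 arrays (2.97 and 2.95), with a mean of 2.96 ± 0.25 (SE, n = 2 arrays, limma adjusted p = 0.00227).

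Its receptor Axl went the other way, and which cells of the mixed culture gave its signal was not tested. Axl gave 6716 in 2D culture and 666 in RTOC at E14.5, and 2563 and 750 at E15.5, and every RTOC signal was below every 2D signal. The mean log2 ratio was -2.55 ± 0.42 (SE, n = 2 arrays, limma adjusted p = 0.0107), 5.87-fold higher in 2D culture. Mertk, the related receptor that macrophages use to take up apoptotic thymocytes, had log2 ratios of 0.22 at E14.5 and 1.5 at E15.5 and was not called (limma adjusted p = 0.135).

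Timd4, a phosphatidylserine receptor of resident macrophages, stayed near background in 2D culture on both arrays (43.0 at E15.5) but reached 318 in RTOC at E14.5 and 561 at E15.5. Its fitted log2 ratio was 4.03 (limma adjusted p = 0.0017), but because the 2D signal is only a limit, the ratio is best given as at least 1.82-fold higher in RTOC. That limit was set after loess normalization of channel intensities and is open to dye bias. The genes of lysosome and lipid handling stayed near 0, with Lgmn, the lysosomal protease legumain, at 0.29 and the glycoprotein Gpnmb at -0.25, neither called.

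The pan-haematopoietic genes, which do not distinguish macrophages from lymphocytes, gave 6 of 8 calls, all higher, with a median of 1.64. Ptprc, which encodes the leukocyte phosphatase CD45, gave 782 and 3061 at E14.5 and 708 and 2458 at E15.5 (2D culture and RTOC). The cultures did not overlap, and the log2 ratio was 1.88 ± 0.25 (SE, n = 2 arrays, limma adjusted p = 0.00609). Cd48, a ligand of CD244 on the surface of leukocytes, gave 538 and 2920, then 415 and 2517, again without overlap, with a log2 ratio of 2.52 ± 0.25 (SE, n = 2 arrays, limma adjusted p = 0.00292).

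Lcp2, the adaptor SLP-76 of T cells, platelets and myeloid cells, rose by 2.06 ± 0.28 (1.04 after normexp and loess), and the small surface glycoprotein Cd52 by 2.02 ± 0.36. The actin-bundling protein Lcp1 rose by 1.33 ± 0.27 and the lysosomal membrane protein Laptm5 by 1.14 ± 0.28. Coro1a, an actin regulator of leukocytes, differed between the arrays (2.31 at E14.5 and 0.47 at E15.5) and was not called (limma adjusted p = 0.0761), and the tetraspanin Cd53 had 0.67 (limma adjusted p = 0.109).

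Between the arrays the order of the members was broadly alike. Over the 43 tested members the log2 ratios of both arrays had a Pearson correlation of 0.85, and over all tested genes one of 0.83, which is given as a description because the arrays share dyes, slide and scan. The median member ratio was 1.11 at E14.5 and 1.41 at E15.5, and 26 members had the larger ratio at E15.5. With 1 array per stage this difference was not tested. Where a member had more than 1 tested probe (20 genes), the probes shared their sign in 19, the exception being Ncf1, and shared their call in 16, the exceptions being Csf1r, Trem2, Lyz2 and Msr1. The dimmer probes of Emr1, Fcgr1, Lst1, Cybb, Ptprc and Laptm5 lost their call after normexp and loess, whereas the brightest ones kept it.

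A wider list of 43 further macrophage genes rose less uniformly. Of the 38 tested, 12 were higher and 1 lower in RTOC, and the median was 0.70 (11 and 1, with a median of 0.44, after normexp and loess). Slco2b1, an organic anion transporter of microglia and other resident macrophages, rose by 4.47 ± 0.26. The chemokine gene Ccl6 fell, with a log2 ratio of -2.89 ± 0.25. Transcription factors of macrophages were higher in 8 of 14 cases, with Irf8 at 2.45 and Cebpa at 2.08, whereas Runx1, which haematopoietic and other cells use, was lower (-1.72). After normexp and loess 6 of the 14 were higher, and the median went from 1.56 to 0.48.

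A list of macrophage growth factors and their receptors moved in both directions, with the ligands of Csf1r lower in RTOC. Csf1, the main ligand of Csf1r, gave 31901 in 2D culture and 4501 in RTOC at E14.5 and 12475 and 2517 at E15.5, a log2 ratio of -2.57 ± 0.27 (SE, n = 2 arrays, limma adjusted p = 0.00338). Il34, the other ligand of Csf1r, had -1.66 ± 0.26 (limma adjusted p = 0.00981). After normexp and loess Il34 was no longer called (-0.70, limma adjusted p = 0.057). Csf1, in contrast, was lower in RTOC under either correction, where the brightest Csf1r probe was higher. Csf2, which encodes GM-CSF, rose clear of background only in 2D culture, and its RTOC level was at least 3.08-fold lower. Kitl, the ligand of the progenitor and mast cell receptor Kit, rose by 3.53 ± 0.25, and Csf2ra, a subunit of the GM-CSF receptor, by 1.32 ± 0.29. Of the 10 tested genes of this list 2 were higher and 4 lower, with a median of -0.61. After normexp and loess 2 were higher and 2 lower, with a median of -0.31.

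Monocyte and dendritic lists went in both directions. In the monocyte list 4 of 11 tested genes were higher and 3 lower (median 0.91), against 0 higher and 2 lower (median 0.35) by limma after normexp and loess, where 3 genes were higher at an unadjusted p under 0.05. Treml4 did not rise clear of background in 2D culture, and its RTOC level was at least 1.46-fold higher. Ly6c1 was lower (-2.20), and Ccr2, the receptor that defines inflammatory monocytes, was not well above background in any channel. In the dendritic list 3 of 11 were higher and 3 lower (median 0.27). The genes that rose were Cd83 (4.97), the class II transactivator Ciita (3.62) and H2-Oa (2.80), all of which thymic epithelium can also express. Fscn1 (-1.99), Bst2 (-1.40) and Zbtb46 (-0.96) were lower, the last of these no longer called after normexp and loess (-0.26, limma adjusted p = 0.216). The cells behind these lower signals were not identified either. Of the markers that define dendritic subsets, Clec9a, Siglech and Cd207 were not well above background in any channel. Xcr1, a receptor of conventional dendritic cells, and Itgae (CD103) were well above background in all 4 channels with log2 ratios of 0.27 and 0.30, and Itgax (CD11c) had -0.04, none of them called.

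**Figure D3:**
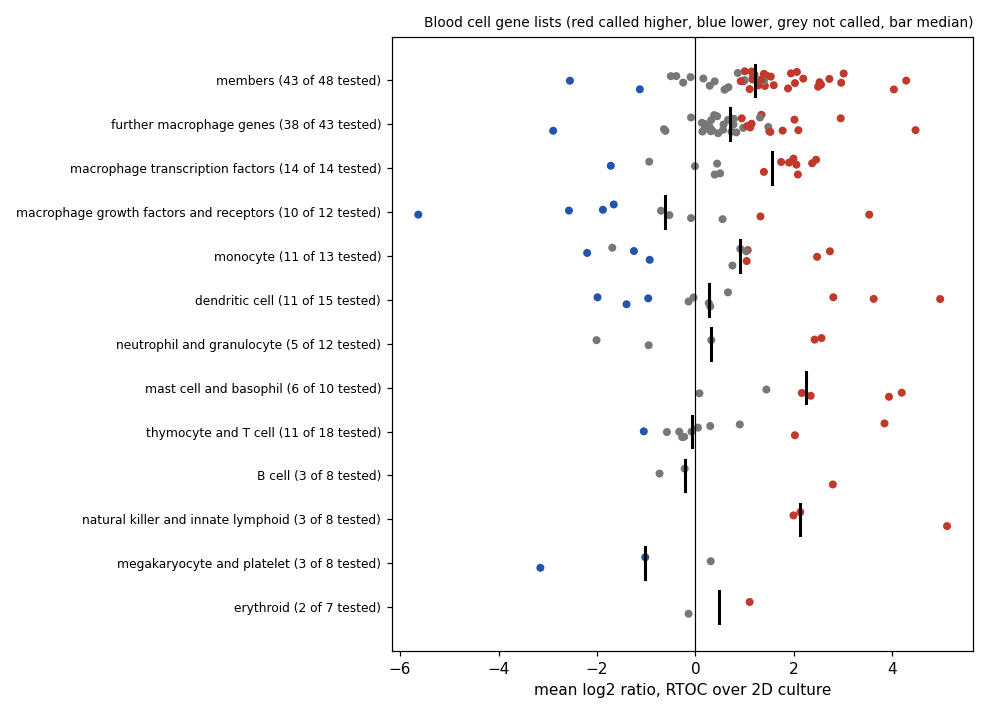
Mean log2 ratio of RTOC over 2D culture (horizontal axis) of each tested gene (points) in the macrophage and myeloid list and in 12 further lists of blood cell genes, with the number tested in brackets. Red and blue mark genes called higher and lower, grey those not called and the black bar the median, which is 1.20 for the members, 0.91 for monocytes and 0.27 for dendritic cells.

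Markers of other cells moved alongside, and their part in the ratios of the members was not tested. Among the blood lineages, some genes of mast cells (Cpa3, Hdc and Kit among 4 of 6 tested that were higher), natural killer cells (Gzma, Gzmb and Nkg7, 3 of 3 tested) and neutrophils (S100a8 and S100a9, 2 of 5) were called higher in RTOC. The other 3 tested neutrophil genes were not called, and the list had a median of 0.32 with a range from -2.01 to 2.56. No natural killer gene was well above background in all channels, each of the 3 entered the test of at least 1 array only through RTOC, and for mast cells and neutrophils 1 gene each was measured in all channels. After normexp and loess limma called 1 mast cell gene, 1 neutrophil gene and 0 natural killer genes higher, and at an unadjusted p under 0.05 the natural killer genes numbered 2. For the T cell, B cell and erythroid lists limma then called 0 genes higher, with 1 gene in each at an unadjusted p under 0.05. T cell genes were mostly not called (8 of 11), with Cd3g at 3.84 and Cd3d at 2.02 higher, and Cd8b1 at -1.05 lower. After normexp and loess 0 T cell genes were called lower, so Cd8b1 lost its call. In the B cell list Cd79b alone of 3 was called, at least 1.54-fold higher. Hba-a1 was higher among the 2 erythroid genes tested (1.10). From the megakaryocyte and platelet list, Pf4 (-3.15) and Gp1bb (-1.02) were lower, the latter not after normexp and loess (-0.27). Whether platelets or other cells gave the Pf4 signal was not tested. The stroma shifted too. Genes of thymic epithelium had a median of 2.78 (8 of 14 higher, with Ccl25 at 6.96, Psmb11 at 3.90 and Foxn1 at 2.65, and 3 lower, namely Cldn4 at -4.26, Krt14 at -1.86 and Cdh1 at -1.28), those of endothelium one of 2.41 (6 of 7 higher, with Cdh5 at least 5.01-fold, and 4 after normexp and loess) and those of fibroblasts one of -0.94 (5 of 10 lower and 3 higher, and 3 each after normexp and loess). The summed signal of the 48 members was 231076 in 2D culture and 529813 in RTOC at E14.5 (2.29-fold), and 209752 and 595222 at E15.5 (2.84-fold). Bright probes weigh most in such a sum, among them those of Lyz2 and of Gas6, which stromal cells also make. It is therefore no measure of the amount of myeloid cells. Summed signals of the 14 thymic epithelial genes changed 3.16-fold and 1.54-fold at the 2 stages.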

How the data were processed

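The authors hybridised labelled cRNA of RTOC (Cy5) and 2D culture (Cy3) together to 1 whole-genome array per stage. The deposited scanner tables hold background-subtracted, dye-normalized processed signal intensities in arbitrary units; the file headers name Feature Extraction 9.1.3.1 and the submitters' processing notes 11.5.1.1. The authors' deposited series table holds log10 ratios of the same signals (largest difference 5e-10, medians -0.0188 at E14.5 and -0.07 at E15.5) and served as an alternative.

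Control spots were left out, and so were outlier spots (5 at E14.5, 1 at E15.5) among the 43379 others. The 4 channels were quantile-normalized over spots (R 4.3.3, limma 3.58.1), and spots of 1 probe were then averaged. The log2 Cy5 over Cy3 ratio was tested against 0 with lmFit and eBayes over 2 arrays (1 residual degree of freedom, 4.5 prior), treated as replicates although their stages differ, with Benjamini-Hochberg adjustment over all 23685 probes that had at least 1 channel well above background on each array. No source says that the cultures were independent, so p-values refer to these arrays only. The spread behind each p-value and SE was moderated by eBayes towards a variance shared by all tested probes. It is therefore not the spread between the 2 arrays alone. Gas6, for example, had an SD of 0.01 between the arrays but an SE of 0.25. The number of arrays limits the precision, and turning the sign of either array in an exact two-sided test allows no p under 0.5. Both arrays lay on 1 slide and in 1 scan. Each array holds RTOC and 2D culture of 1 stage, so the pairing within an array is part of the test. On data simulated for this comparison with 200 of 23685 probes changed, 0.597%, 33.3% and 97.9% of changes of 1, 2 and 4 on the log2 scale were recovered, and 8.16% of calls were false. This setting differs from the data, where 6820 probes were called, and the simulated errors were independent, without a dye effect. The rates therefore describe the simulation only.

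Genes were named through the RefSeq table of GRCm38.p6 (by accession 22951 probes, symbol 6659, older symbol 3109), and 8455 probes kept the file's name. Each gene is represented by its brightest probe. A gene below background in a whole culture has only a bound, computed after normexp background correction, loess and Aquantile from the lowest signal well above background. Values in every channel are given for the 3 highest and 3 lowest mean ratios among called members measured in both cultures and for Csf1r, Emr1, the C1q chains, Ptprc, Sfpi1, Spic, both lysozymes, Mrc1, Gas6 and Axl; for the 15 other lists, up to 3 called genes with the largest ratios are named, besides Csf1, Il34, Csf2, Foxn1 and Psmb11, and a few genes that this rule takes are not reported here. Other genes named were chosen after their values were seen. The members and lists were chosen with earlier results of these data known. Alternatives were another background correction with loess, median centring, the deposited ratios, filters, moderated-variance options, an unpaired fit and the methods' t-test.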

Additional observations from a re-analysis of the deposited data

Results flagged for a closer look

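In 3 members the arrays went opposite ways, and since each stage has 1 array, that difference was not tested. The log2 ratio at E15.5 minus that at E14.5 was 1.98 for the mannose receptor Mrc1 (-0.40 at E14.5 and 1.58 at E15.5), 0.55 for Gpnmb (-0.53 and 0.02) and 0.50 for Fcgr3 (-0.35 and 0.14). None of the 3 genes was called. Opposite signs were found for 20.4% of all tested genes.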

How the results depend on the processing

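The median log2 ratio of the members was 1.20 and lay between 1.11 and 1.41 when either array was used alone, at 0.94 with normexp background correction and loess (with or without Aquantile) and at 1.29 with arrays centred on the median, for which the median of the 23685 tested probes was 0.15 against -0.01. With normexp and loess the probes called dropped from 6820 to 3716, while 26 members were higher and 2 lower and 28 of the 29 calls were kept, Clec10a being lost. With the deposited ratios Clec7a was lost (limma adjusted p = 0.0523). Slc11a1 was gained with median centring, the stricter filter, trend and robust fitting and the deposited ratios, Mpeg1 with the first 3 of these and Coro1a with median centring. Without the replicate block, that is with the pairing of both cultures on an array ignored, 4033 probes were called and 20 members were higher and 1 lower, with Csf1r, C1qb, Fcgr1, Trem2, Lyz1, Msr1, Clec7a and Clec10a no longer called. Without a filter on dim probes limma called 0 probes and 0 members in either direction (10666 probes at an unadjusted p under 0.05). The methods' t-test called 0 probes and 0 members after Benjamini-Hochberg, and 3539 probes, 13 members higher and 0 lower unadjusted. The scavenger receptor median was -0.24 at E14.5 and 0.93 at E15.5 alone, and that of lysosome and lipid handling -0.05 and 0.08, with -0.01 after normexp and -0.03 with the deposited ratios. Fcgr3 became 0.01 with median centring. The cause of these changes was not tested. Leaving out an array leaves no residual degrees of freedom, so calls cannot be tested there.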
